A study of Bos taurus with 54 samples.

Results

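The genes of the T cell receptor complex and its co-receptors were followed through whole blood of heat-stressed calves. The 10 genes were chosen by symbol from the 32637 genes of the count files: CD3D, CD3E, CD3G and CD247, the co-receptor genes CD4, CD8A and CD8B, and the accessory genes CD5, CD6 and CD28. The calves were Holstein males held in climate-controlled rooms, with no other genotype or agent named in the labels. Blood was drawn in the morning under thermoneutral conditions, before any heat (control), and in the evening, directly after 12 h of heat exposure (heat), and not every calf has libraries of both times. Red blood cells were lysed before RNA extraction. Control blood was drawn only in the morning and heat-stressed blood only in the evening, and heat and time of day cannot be told apart.

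The T cell receptor binds antigen but has no signalling domain of its own. The CD3 chains and the zeta chain encoded by CD247 carry the tyrosine motifs that LCK phosphorylates and ZAP70 then binds. The co-receptors CD4 and CD8 bind MHC class II and class I and bring LCK to the complex, CD28 gives the co-stimulatory signal, and CD5 and CD6 are related scavenger-receptor proteins that tune the response. Cattle blood is known for its large share of gamma delta T cells, many of which carry CD3 without CD4 or CD8.

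Each RNA was made into 3′ mRNA-Seq libraries, which read only the 3′ end of a transcript, with a Takara kit (SMART-Seq v4 3′ DE), a Lexogen kit (QuantSeq 3′) or both. The time comparison used 13 control and 13 heat libraries per kit from 14 calves, with 12 calves sampled at both times in each kit. The libraries of animal 20, 1 per kit, were kept out because the sources differ on its time. Counts on genes ranged from 5140595 to 20699030 in Takara libraries and from 4516761 to 58521751 in Lexogen libraries. The deepest was the Lexogen heat library of animal 15, and the Lexogen heat library of animal 18 had the fewest genes with a count (9273). Levels are given as CPM, the counts per 1000000 counts of the TMM-scaled library size. They are not divided by transcript length, which the study states is not needed for 3′ mRNA-Seq. For the same RNA, however, the reads per gene differed between the kits. A difference in level between genes is therefore not read as one of expression. RNA of platelets and red blood cells was still present after the lysis, with mean levels in control and heat Takara libraries of 2283 and 2026 CPM for PF4, a platelet chemokine, and of 1611 and 1288 CPM for HBB, a globin gene.

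In ARS-UCD2.0 the genes lie in a few clusters. CD3E (chr15:29004581-29015196), CD3D (chr15:29019453-29023621) and CD3G (chr15:29025582-29037075) are neighbours, with gaps of 4256 and 1960 bases. CD8B (chr11:48044725-48064468) and CD8A (chr11:48118106-48125250) are 53637 bases apart. CD6 (chr29:37311466-37357287) and CD5 (chr29:37422928-37444470) are 65640 bases apart. CD247 (chr3:1182868-1266847), CD4 (chr5:103631358-103654777) and CD28 (chr2:91906337-91939865) lie alone. No member overlapped another gene of the annotation table, and at least 93.7% of the reads on each member were in the sense direction in both kits.

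In Takara libraries 6 of the 10 genes were down-regulated after heat stress, and 0 were up-regulated. CD3D, CD3E, CD3G, CD247, CD8B and CD6 fell, each by 25.2% to 31.6%. Of all 12620 genes tested, 10.5% were down-regulated and 18.4% up-regulated (edgeR quasi-likelihood test, Benjamini-Hochberg adjusted p under 0.05). With library sizes taken as the unscaled totals on genes, these shares were 17.3% and 10.3%, and 7 of the 10 genes were down-regulated. The median log2 fold change was -0.45 over the 10 genes and -0.05 over all genes. In whole blood, fewer T cells and less RNA per T cell cannot be told apart. Neutrophil genes moved the opposite way in the same libraries, 10 of 11 rising with a median log2 fold change of 2.14. The median of their summed level went from 12940.3 to 44311 CPM. A CPM here is relative to the TMM-scaled size of the library, which depends on its other RNA. The part of this neutrophil RNA in the lower values was not tested.

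**Figure D1:**
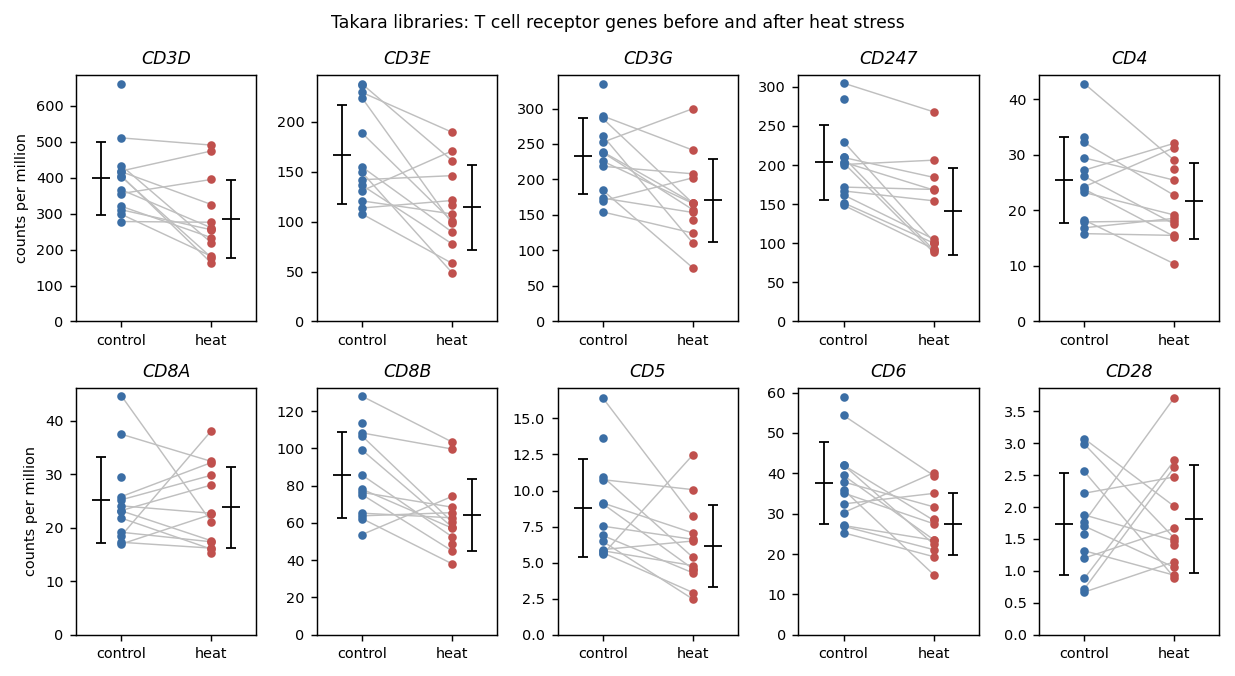
CPM of each gene in the 13 control and 13 heat Takara libraries, with a separate axis from 0 for each gene. Points are libraries, grey lines join both times of a calf, and black bars give the mean ± SD of a group. The CD3 genes and CD247 are lower after heat in most calves, while the groups overlap for every gene.

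CD3D, the delta chain, ranged in Takara controls from 278 to 662 CPM with a median of 403, and in heat libraries from 162 to 490 CPM with a median of 257. It fell by 0.48 on the log2 scale (SE 0.17, adjusted p = 0.0349, edgeR). Of the 13 heat libraries 9 lay below the lowest control, although the groups overlapped, and CD3D was lower after heat in 10 of 12 calves, or 8 of 12 relative to the library total without TMM scaling. The pairs ran from -1.32 in animal 18 to 0.18 in animal 32 on the log2 scale.

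CD3E, the epsilon chain that pairs with either of the other CD3 chains, ranged from 108 to 238 CPM (median 149) in controls and from 48.7 to 190 CPM (median 108) after heat. It fell by 0.55 on the log2 scale (SE 0.19, adjusted p = 0.0304, edgeR). The groups overlapped, 6 heat libraries lay below every control, and 9 of 12 calves were lower after heat. Among the 10 genes CD3E had the lowest fitted log2 fold change, and animal 18 again had the lowest pair (-1.61).

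CD3G, the gamma chain of CD3, ranged from 154 to 335 CPM (median 238) in controls and from 75.5 to 299.8 CPM (median 166) after heat. It fell by 0.45 on the log2 scale (SE 0.16, adjusted p = 0.0381, edgeR), with 10 of 12 calves lower. The lowest library and the lowest pair were those of animal 15, and 5 heat libraries lay below every control.

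CD247, whose zeta chain carries most of the tyrosine motifs of the complex, ranged from 149 to 305 CPM (median 203) in controls and from 88.3 to 268 CPM (median 105) after heat. It fell by 0.53 on the log2 scale (SE 0.17, adjusted p = 0.0214, edgeR). It was lower in 11 of 12 calves, and animal 32 was the exception with a log2 ratio of 0.04. As for the CD3 genes, the heat group was low in most but not all calves, with 7 heat libraries below every control.

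Of the co-receptor genes, only CD8B passed the test in Takara libraries. CD8B, which encodes the beta chain of the CD8 heterodimer, ranged from 53.8 to 128 CPM (median 78.1) in controls and from 38.1 to 103 CPM (median 60.5) after heat. It fell by 0.42 on the log2 scale (SE 0.15, adjusted p = 0.0423, edgeR) and was lower in 10 of 12 calves. The call was close to the threshold, and with all expressed genes in place of the filter its adjusted p was 0.0513 (edgeR).

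CD8A encodes the alpha chain, which forms CD8 with the beta chain or as a homodimer that also occurs on NK and gamma delta T cells. It ranged from 17.0 to 44.7 CPM (median 23.2) in controls and from 15.3 to 38.1 CPM (median 22.5) after heat. The groups covered much the same range, and 7 of 12 calves were lower, or 10 of 12 relative to the unscaled library total. The log2 fold change was -0.08 (95% interval -0.42 to 0.27, adjusted p = 0.753, edgeR), an interval whose lower end was near the CD8B estimate. Animal 40 had the lowest pair (-1.08) and animal 32 the highest (1.04).

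CD4, the co-receptor of helper T cells, ranged from 15.8 to 42.9 CPM (median 24.3) in controls and from 10.4 to 32.1 CPM (median 19.2) after heat. Its log2 fold change of -0.23 did not pass the test (95% interval -0.58 to 0.12, adjusted p = 0.325, edgeR), and 8 of 12 calves were lower. The groups overlapped over most of their range, and 3 heat libraries lay below every control.

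The ratios between these genes within a library describe the same data without the scaling of the library, and were not tested. They are compared between times within a kit only, since the control median of CD8B to CD8A was 3.61 in Takara and 0.395 in Lexogen libraries. The CD8B to CD8A count ratio had a median of 2.76 in heat Takara libraries and was higher after heat in 3 of 12 calves. The CD4 to CD8B ratio had medians of 0.278 and 0.304 and was higher after heat in 10 of 12 calves, while the CD4 to CD8A ratio had medians of 0.921 and 0.882 and was higher in 5 of 12. Per 1000 counts on the 3 CD3 genes, CD4 had a median of 29.8 counts in control and 41.9 in heat libraries and was higher in 9 of 12 calves, and CD8A and CD8B were each higher in 8 of 12. CD247 in Takara libraries had medians of 257 and 239 counts per 1000 CD3 counts and was higher after heat in 4 of 12 calves. In Lexogen libraries the CD4 to CD8B ratio had medians of 0.610 and 0.513 and was higher after heat in 4 of 11 calves, and CD4 per 1000 CD3 counts was higher in 5 of 12.

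Of the accessory genes, CD6 passed the test in Takara libraries. CD6, a receptor for the adhesion molecule ALCAM, ranged from 25.3 to 59.0 CPM (median 35.97) in controls and from 14.9 to 40.1 CPM (median 27.5) after heat. It fell by 0.45 on the log2 scale (SE 0.15, adjusted p = 0.0268, edgeR), with 10 of 12 calves lower and 6 heat libraries below every control.

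CD5, a negative regulator of receptor signalling that some B cells also carry, ranged from 5.56 to 16.4 CPM (median 7.53) in controls and from 2.47 to 12.5 CPM (median 5.37) after heat. Its estimate of -0.51 on the log2 scale was as low as those of the CD3 genes, yet it did not pass the test (SE 0.23, adjusted p = 0.0923, edgeR). The counts behind it were small, from 26 to 173 per library. The calves split 10 lower to 2 higher, and animal 14 was highest with a log2 ratio of 1.14.

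CD28, the co-stimulatory receptor, was near the limit of the data, with 6 to 42 counts per Takara library. It ranged from 0.668 to 3.07 CPM in controls and from 0.894 to 3.71 CPM after heat, and 6 of 12 calves were lower. The log2 fold change was 0.08 (95% interval -0.46 to 0.63, adjusted p = 0.839, edgeR) and became -0.14 when the total count on genes was the library size. A change inside this interval was not detectable in these libraries.

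The calls in Takara libraries were near the threshold, and leaving out any one of 8 of the 14 calves lowered their number. Without animal 18 none of the 10 genes passed the test, against 7.23% of all genes down-regulated. Without animal 15, 23 or 36 only CD247 remained (7.79%, 8.32% and 6.2% of all genes), and without animal 40 only CD6 (7.04%), a share of the 10 genes close to that of all genes. Without animal 7 or 16 the count was 3 (7.46% and 6.93%) and without animal 29 it was 4 (9.5%). Without any one of the other 6 calves it was 6, against 9.51% to 13% of all genes. The estimates moved less than the calls, from -0.56 to -0.40 for CD3D, from -0.63 to -0.49 for CD3E and from -0.59 to -0.48 for CD247. With animal 20 taken as a control 0 members passed and 0 of all genes did. In that fit 6 of the 10 genes had an unadjusted p under 0.05 (edgeR), as did 30.1% of all genes. The median log2 fold change there was -0.41 over the 10 genes and -0.05 over all genes. With animal 20 as heat-stressed the count of members passing stayed at 6.

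The calves also came in 2 sample number series, whose meaning the labels do not give. In the series with the lower numbers, of 8 animals, 3 genes were down-regulated, CD3D (log2 fold change -0.75), CD247 (-0.76) and CD6 (-0.68), against 5.87% of all genes. In the series with the higher numbers, of 6 animals, 0 passed, against 2.55% of all genes, and the estimates were -0.17, -0.28 and -0.21. CD3E was -0.47 in the lower-numbered series and -0.61 in the other. The interaction of series and time was called for 0 of the 10 genes, 0 of which had an unadjusted p under 0.05 (16.2% of all genes), and for 2.27% of all genes in Takara libraries (edgeR). In Lexogen libraries it was also called for 0 members, 1 of them, CD28, having an unadjusted p under 0.05 (7.86% of all genes), and for 0.0222% of all genes.

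The calves differed in how far the set as a whole moved, described here by the log2 ratio of heat to control within each calf. All 10 genes were lower after heat in animals 15, 16 and 40, and 8 of 10 in animals 3, 7, 18 and 36. The median over the 10 genes was lowest in animals 18 (-0.83), 40 (-0.78) and 15 (-0.77). In animals 41 and 32 it was -0.00 and -0.03, with 5 of 10 genes lower in each. These sizes depended on the scaling, and levels relative to the unscaled library total gave medians of -1.49, -1.48 and -1.44 in animals 18, 40 and 15, and 0.03 and 0.02 in animals 41 and 32. Levels between calves, with time in the model, were called for 0 of the 10 genes, against 2.7% of all genes (edgeR). CD4 (p = 0.0085), CD8B (p = 0.0385) and CD247 (p = 0.0427) had unadjusted p under 0.05 in that test, as did 12.8% of all genes. In Lexogen libraries 0 of 9 members were called, 0 had an unadjusted p under 0.05 (2.88% of all genes), and 0.0902% of all genes were called.

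In Lexogen libraries none of the genes passed the test of time, 0 of the 9 tested, against 0.459% of all 11108 genes down-regulated and 5.09% up-regulated (5.55% in either direction). With edgeR 0 had an unadjusted p under 0.05, against 16.9% of all genes, and with DESeq2 0 did, against 12.4%. CD28 was removed by the filter on low counts. With the calf as a block 3 of 9 had an unadjusted p under 0.05, against 14.3% of all genes, and 0 passed the test. The median log2 fold change of the 9 genes was -0.24, and that of all genes -0.08. This median was -0.46 with the block (all genes -0.21), -0.43 without animal 12 and -0.14 without the heat library of animal 18.

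**Figure D2:**
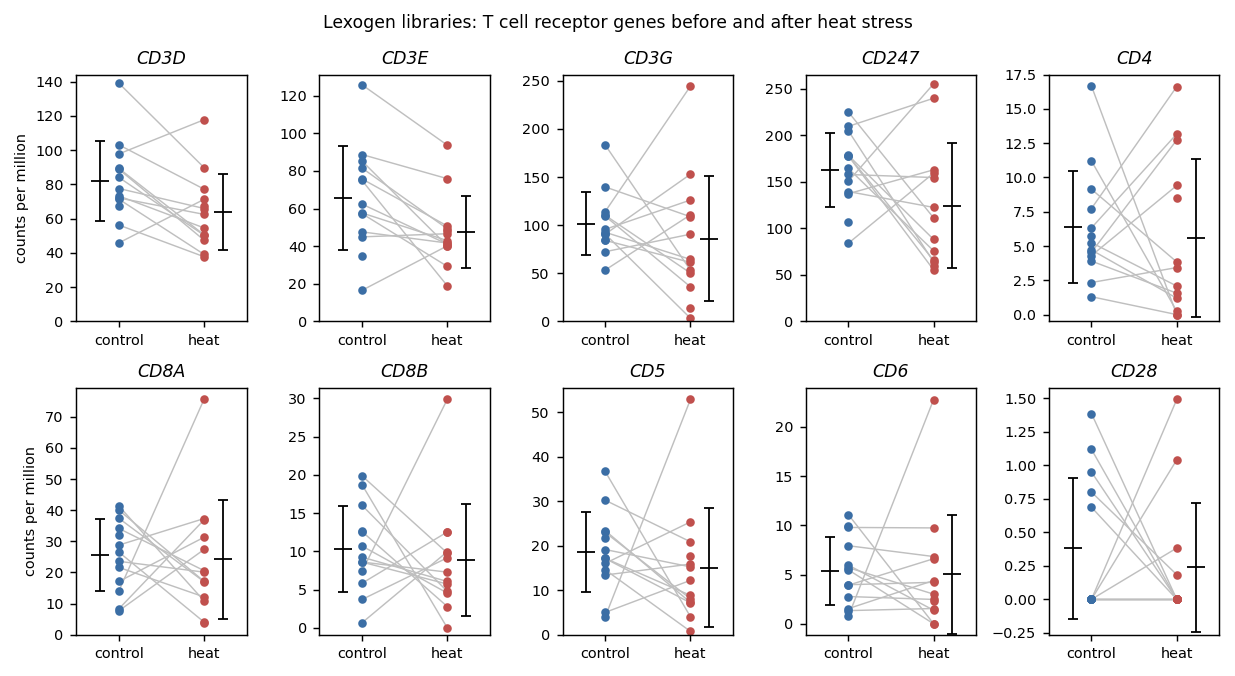
CPM of each gene in the 13 control and 13 heat Lexogen libraries, drawn as for the Takara libraries, with the mean ± SD of each group as black bars, some of which reach below 0. Several genes reach 0 in single libraries, and the heat groups of CD4, CD5 and CD6 are widely spread.

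CD3D, CD3E and CD247 had the smallest SE in Lexogen libraries (0.19, 0.24 and 0.23), while that of CD3G was 0.34. CD3D ranged from 45.9 to 139 CPM (median 77.6) in Lexogen controls and from 37.8 to 117.7 CPM (median 62.5) after heat, and its log2 fold change was -0.36 (95% interval -0.74 to 0.02, adjusted p = 0.336, edgeR). CD3E ranged from 16.6 to 126 CPM (median 62.4) and from 18.9 to 93.7 CPM (median 42.96), with -0.46 (95% interval -0.95 to 0.02, adjusted p = 0.330, edgeR). CD247 ranged from 83.9 to 225 CPM (median 164) and from 55.3 to 255 CPM (median 111), with -0.39 (95% interval -0.85 to 0.07, adjusted p = 0.403, edgeR). Of the 12 calves 10 were lower for CD3D and CD3E and 8 for CD247, and all groups overlapped.

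CD3G ranged from 53.4 to 183 CPM (median 92.6) in controls and from 3.28 to 244 CPM (median 64.4) after heat. The low value was animal 18, with 13 counts, and the high one animal 23. Its log2 fold change was -0.24 (95% interval -0.93 to 0.45, adjusted p = 0.797, edgeR), and 7 of 12 calves were lower. The estimate was -0.47 without animal 23 and -0.10 without animal 36.

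The co-receptor and accessory genes were too spread in Lexogen libraries for a change of the size seen in Takara libraries to be detectable. CD4 ranged from 1.30 to 16.7 CPM in controls and from 0 to 16.6 CPM after heat, with no count in 2 heat libraries, those of animals 12 and 18. A count of 0 there allows up to 0.402 and 0.758 CPM, from 3 counts of each library and for counting error only. The log2 fold changes were -0.19 for CD4 (95% interval -1.47 to 1.09), -0.08 for CD8A (-0.82 to 0.65) and -0.23 for CD8B (-1.20 to 0.75), with adjusted p of 0.926, 0.949 and 0.879 (edgeR). The CD8B estimate was -0.58 without animal 12 and -0.0041 without animal 18.

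CD5 had a log2 fold change of -0.30 in Lexogen libraries (95% interval -1.12 to 0.53, adjusted p = 0.789, edgeR), which was -0.72 without animal 12 and -0.09 without animal 32, and CD6 of -0.10 (-1.38 to 1.17, adjusted p = 0.966). CD6 showed the spread most clearly, with an SD of 120% of the mean among heat libraries, against 27.9% in Takara heat libraries. It had no count in 2 Lexogen heat libraries and reached 22.8 CPM in that of animal 12. CD28 had no count in 8 of 13 control and 9 of 13 heat libraries and at most 16 counts.

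**Figure D3:**
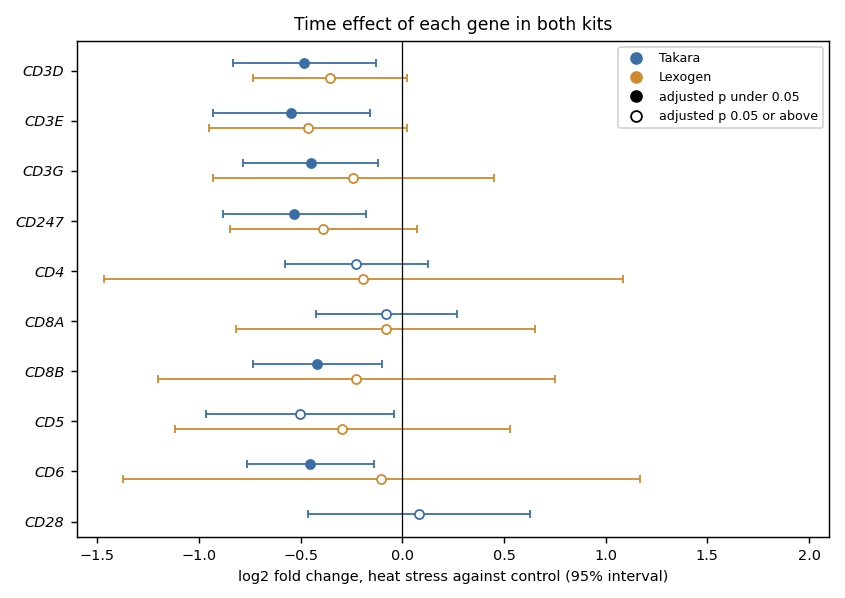
Log2 fold change of heat against control for each gene, with its 95% interval, in Takara (blue) and Lexogen (orange) libraries. Filled points passed an adjusted p of 0.05 and open points did not, and CD28 was not tested in Lexogen libraries. The intervals of CD4, CD8B and CD6 are much wider in Lexogen than in Takara libraries.

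The difference of the time effect between kits was tested within RNA samples that had libraries of both kits, 24 in all. It was called for 0 of the 10 genes and 0% of the 13354 genes tested, and 0 of the 10 and 3.94% of all genes had an unadjusted p under 0.05 (edgeR). For CD3D the Takara effect minus the Lexogen effect was -0.12 on the log2 scale (95% interval -0.49 to 0.25), and for CD247 it was -0.15 (-0.47 to 0.16). For CD4 it was 0.76 (-0.63 to 2.14), so that the kits could differ in either direction. Among the 10 calves with both times in both kits, CD3D was lower after heat in both kits in 7 and of opposite sign in 3. CD247 was lower in both in 6 and opposite in 3. CD3E was lower in both in 5 and opposite in 5, CD6 in 4 and 5, and CD3G and CD8B in 5 and 4 each. CD28 was lower in both in 2 and opposite in 4, with no count at either time in the Lexogen libraries of 3 others.

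The kits differed in how many reads they gave each gene. The level differed for 8 of the 10 genes in the same RNA samples (edgeR), 7 being higher in Takara libraries, against 45.3% of all genes, and CD5 being lower, against 26.3%. The median over all genes was 0.48 on the log2 scale. CD3D was 3.97-fold higher in Takara libraries, CD3E 2.26-fold and CD3G 2.11-fold, and CD8B and CD6 were 7.64-fold and 7.74-fold higher. CD4 was 5.13-fold higher, while CD5 in Takara libraries was at 0.425 of its Lexogen level. CD28 was higher in Takara libraries by 3.91 on the log2 scale, with a wide 95% interval of 2.33 to 5.48. It had no count in 17 of the 26 Lexogen libraries of the time comparison, not all of which are in this fit. CD247 (log2 difference 0.04, 95% interval -0.12 to 0.20) and CD8A (-0.15, -0.58 to 0.29) did not pass the test. Of the neighbouring genes CD6 and CD5, the former was higher and the latter lower in Takara libraries.

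The other genes of receptor signalling were counted by lists in the Takara fit, where 10.5% of all genes were down-regulated and 18.4% up-regulated. Of 30 proximal kinases, phosphatases and adaptors 5 were down-regulated and 10 up-regulated, with a median log2 fold change of -0.05. The largest changes were all upward, in SLA (1.24), an adaptor that lowers receptor levels, PTPN6 (1.16), the phosphatase SHP-1, CBL (0.89), a ubiquitin ligase, and DGKZ (0.84), which removes diacylglycerol. These 4 genes are also expressed in other leukocytes. SLA, PTPN6 and CBL were also up-regulated in Lexogen libraries, where 5 of 30 rose and 0 fell, against 5.09% and 0.459% of all genes.

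Of 17 downstream genes tested, 2 were down-regulated and 4 up-regulated in Takara libraries, against 10.5% and 18.4% of all genes. BCL10 (0.78), SOS1 (0.70) and PPP3CA (0.56), which act in the NF-kB, Ras and calcineurin branches, rose. In Lexogen libraries 1 of 17 rose, SOS1, and 0 fell, close to the 5.09% and 0.459% of all genes.

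Of 17 co-stimulatory and inhibitory receptors tested 3 were down-regulated and 0 up-regulated in Takara libraries, against 10.5% and 18.4% of all genes, with a median of -0.23. These were CD7 (-0.91), CD40LG (-0.75), the ligand by which helper T cells activate B cells, and CD27 (-0.49). Of 15 T lineage transcription factors 6 were down-regulated and 2 up-regulated, with a median of -0.31. BCL11B (-0.91), GATA3 (-0.90) and TCF7 (-0.63), all needed for T cell development, fell. ZBTB7B, which directs cells to the CD4 lineage, rose (0.94) from a low level, with group means of 1.15 and 2.15 CPM. In Lexogen libraries 0 of 11 receptors and 0 of 15 factors passed the test in either direction, against 5.55% of all genes.

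Of the gamma delta T cell genes, 8 of 12 were in the files and all 8 were tested. BLK (-0.98), a kinase that B cells also express, and TRGC4 (-0.63), a constant segment of the gamma chain, were down-regulated in Takara libraries and 0 were up-regulated. Over all genes 10.5% were down-regulated and 18.4% up-regulated there. The list median of -0.70 was the lowest of the lists counted. In Lexogen libraries 0 of 8 passed the test, against 5.55% of all genes, and the median was -0.46. Reads that map equally well to several gamma segments were not counted, so the TRGC4 value is uncertain.

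**Figure D4:**
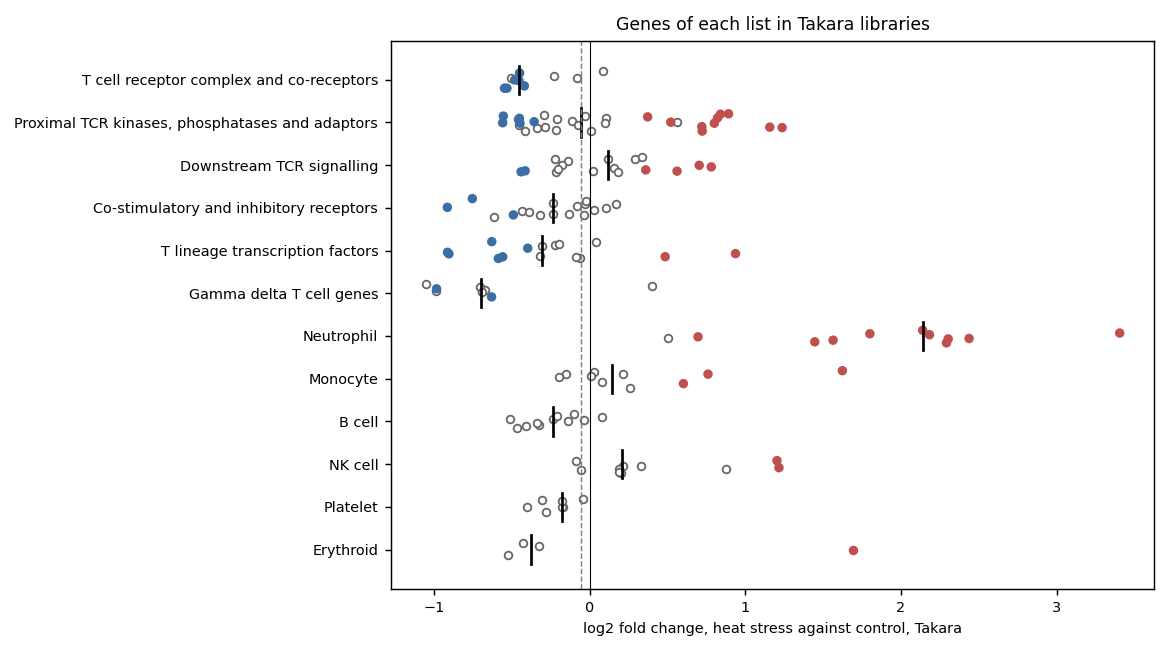
Log2 fold change of heat against control in Takara libraries for every tested gene of each list. Filled points passed an adjusted p of 0.05 (blue lower, red higher), open points did not, black bars are list medians and the dashed line is the median of all genes (-0.05). The T cell receptor genes lie mostly below 0 and the neutrophil genes mostly above 1.

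Neutrophil genes moved in the opposite direction to most of the T cell receptor genes. Of 11 neutrophil genes tested in Takara libraries 10 rose, among them S100A8 (2.30), S100A12 (2.29) and CXCR2 (1.80), and 0 fell. Over all genes 18.4% rose and 10.5% fell. The list had a median of 2.14. The summed level of the list ranged from 4901 to 21374 CPM (median 12940.3) in controls and from 4734 to 113740 CPM (median 44311) after heat. In Lexogen libraries 7 of 10 rose and 0 fell, against 5.09% and 0.459% of all genes. The sum there went from a range of 1401 to 7457 CPM (median 3920) to 1910 to 33548 CPM (median 11150). Of the defining neutrophil genes MMP8 and CAMP were at or near 0 in both times in Takara libraries.

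The neutrophil sum and the summed level of the 10 T cell receptor genes moved in opposite directions in many calves. In Takara libraries 10 of 12 calves had a higher neutrophil sum after heat, 10 had a lower T cell receptor sum, and 9 had both. In animal 36 the neutrophil sum was 17.7-fold higher and the T cell receptor sum 0.654 of its control, and in animal 40 these were 7.25-fold and 0.501. In animal 41 the neutrophil sum was 0.646 of its control and the T cell receptor sum 1.06 of it. In animal 3 both were lower, at 0.522 and 0.898, and in animal 32 both were higher, at 2.89-fold and 1.03-fold.

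**Figure D5:**
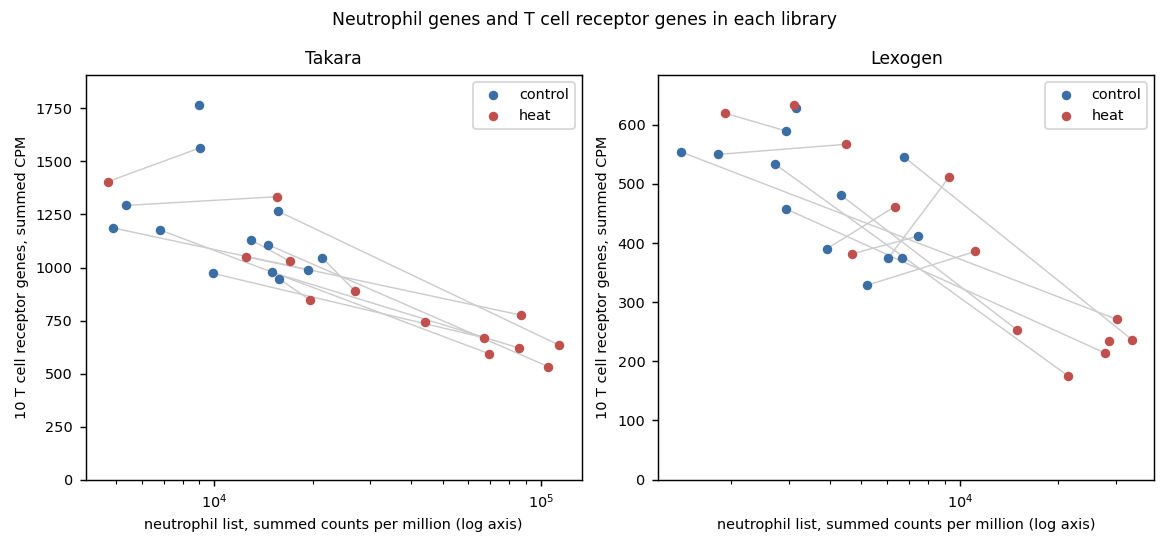
Summed level of the neutrophil list (CPM, log axis) against the summed level of the 10 T cell receptor genes (CPM, axis from 0) in each library, for Takara (left) and Lexogen (right). Blue points are control and red points heat libraries, and grey lines join both times of a calf. The heat libraries with the highest neutrophil sums, up to 113740 CPM in Takara libraries, have low T cell receptor sums.

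In Lexogen libraries 9 of 12 calves had a higher neutrophil sum after heat, 6 a lower T cell receptor sum, and 5 both. The T cell receptor sum ranged from 329 to 628 CPM (median 481) in controls and from 176 to 634 CPM (median 382) after heat, and was lowest in animal 18, at 0.330 of its control. In Takara libraries it ranged from 946 to 1768 CPM (median 1130.2) and from 532 to 1405 CPM (median 776).

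Over all genes 10.5% were down-regulated and 18.4% up-regulated in Takara libraries, and 0.459% and 5.09% in Lexogen libraries. The B cell list had 0 of 11 genes called in either direction in both kits, with medians of -0.24 and -0.43. Of 10 NK cell genes 2 rose in each kit, NCR1 and TYROBP, and 0 fell, in Takara libraries a share close to that of all genes. TYROBP is an adaptor that myeloid cells also express. Of 10 monocyte genes 3 rose in Takara and 0 in Lexogen libraries, with 0 down-regulated in either. The platelet list had 0 of 7 called in both kits, and the erythroid list 1 of 4 in Takara libraries, EPB42 (1.69), and 0 of 2 in Lexogen libraries. Their part in the T cell receptor values was not tested.

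How far the genes varied together was described by Pearson's r over the 26 libraries of a kit, which share the kit, the scaling and the time groups. In Takara libraries CD3D and CD247 had the highest r (0.89) and CD8A and CD6 the lowest (-0.07). In Lexogen libraries these pairs had r of 0.57 and 0.33, the highest was CD8B with CD6 (0.72, against 0.26 in Takara libraries) and the lowest CD3E with CD8A (-0.10). Against the mean pattern of the 9 genes kept in both kits, which includes the gene itself, the mean r over kits was 0.84 for CD3G, 0.83 for CD247 and 0.82 for CD3D and CD6. It was lowest for CD8A (0.47).

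Of 9678 other genes, the 10 most like that pattern were LAT (mean r 0.89), SKAP1 (0.87), CDC25B (0.87), LAS1L (0.87), IL27RA (0.86), FYN (0.84), DNAJC8 (0.84), RCAN3 (0.84), SIGIRR (0.83) and DAPL1 (0.81). The median over all ranked genes was 0.16. LAT is the membrane adaptor that ZAP70 phosphorylates, FYN a kinase of the receptor complex, and SKAP1 an adaptor that links the receptor to integrins. With levels centred on the mean of each time, 9 of the 10 stayed among the first 10, and DAPL1 went to rank 20.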

How the data were processed

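Whole blood of Holstein calves was sampled before and after heat exposure, and RNA was sequenced with both 3′ kits, 54 libraries in all. Per the study's methods the authors trimmed forward reads with Trimmomatic 0.39, checked them with FastQC 0.11.9 and MultiQC 1.14, aligned them by STAR 2.7.10b to the ARS-UCD2.0 assembly, and deposited unnormalized counts per gene of reads mapped to 1 place, as unstranded, sense and antisense columns. The unstranded counts were used, without the rows of totals that name no gene. Those rows held 32.2% to 57.9% of a library. The reads carry no molecular identifiers, so the floors, from 3 counts, cover counting error only. The 95% intervals are those of the edgeR fits and include the spread between libraries. Gene names are those of the files, of which 30271 of 32637 matched RefSeq's ARS-UCD2.0 table, the source of positions.

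Groups came from the labels. Times were compared within each kit with edgeR 4.0.16 in R 4.3.3 (filterByExpr, TMM, quasi-likelihood test of time alone, Benjamini-Hochberg over all genes tested, adjusted p under 0.05). The kit comparisons had the RNA sample as a block. Levels within a calf are log2 CPM with a prior count of 2. Same-numbered libraries come from the same calf. Their deviations from the group means correlated above 0.1 in 11 of 12 calves in Takara (median r 0.23) and 2 of 12 in Lexogen libraries (median 0.02), and the calf as a block was an alternative, since the study modelled time alone. Other alternatives were sense counts, the total count as library size, all expressed genes, DESeq2 1.42.0, animal 20 in either group, each sample number series alone and leaving out each animal. Leaving out the Lexogen heat library of animal 18 and the calf block in the series interaction were chosen after seeing the data. The steps were tested on simulated data.

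All 10 genes were named, and by rule the 10 genes most like their mean pattern (symbols not starting with LOC), up to 4 called genes per pathway list with the largest Takara change, and up to 3 markers per cell type list. Of the genes this rule names, 1 is not reported here. The genes and lists were chosen with earlier results of these data known.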

Additional observations from a re-analysis of the deposited data

Results flagged for a closer look

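The libraries of animal 20 were left out of the main comparison of times, and their neutrophil gene sum lay above every control library of the same kit. The sum was 115624 CPM in the Takara library and 39071.8 CPM in the Lexogen library. With animal 20 in the same scaling, the controls reached at most 21320 CPM in Takara and 7459 CPM in Lexogen libraries, and the heat libraries 109884 and 33474 CPM. Its group was not drawn from these values.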

How the results depend on the processing

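The 6 down-regulated genes in Takara libraries became 7 with the total count as library size, which adds CD5, shifts all genes by a median of -0.22 (-0.06 in Lexogen libraries) and turns the split over all genes from 2325 higher and 1321 lower to 1303 and 2185. They became 5 with all expressed genes, and were 6 with sense counts, DESeq2 and animal 20 as heat-stressed. With animal 20 as control the count was 0, in the lower-numbered sample series alone it was 3 and in the higher-numbered series alone 0, fits with fewer samples for the series, and otherwise the cause was not tested. Leaving out 1 animal gave 0 to 6. With the calf as a replicate block the count was 6 in Takara and 0 in Lexogen libraries, and the block changed no other call of these genes. The Lexogen count was 0 in every alternative run. Over all genes Lexogen calls went from 616 to 63 with the block, to 3273 with all expressed genes and to 1006 with DESeq2.

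Signs of uncalled estimates turned as follows. In Takara libraries CD8A was 0.25 in the higher-numbered series and CD28 was -0.16 there and -0.14 with the total count. In Lexogen libraries the lower-numbered series gave CD3G 0.044 and CD8A 0.0021, and the higher-numbered series gave CD247 0.10, CD4 0.91 and CD8B 0.086. Without the Lexogen heat library of animal 15 or 18, CD8A was 0.0028 or 0.013. Leaving out 1 animal spanned -0.19 to 0.033 for CD8A and -0.049 to 0.20 for CD28 in Takara libraries, and -0.42 to 0.16 for CD4, -0.42 to 0.059 for CD8A and -0.71 to 0.14 for CD6 in Lexogen libraries. CD28 had at most 42 counts in a Takara and 16 in a Lexogen library. CD4, CD8B and CD6 in Lexogen libraries had CVs of 54.2% to 120% at group medians of 31 to 104 counts.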

Other observations

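The T cell receptor genes of animal 20 are given as values only. Its Takara library had 185 CPM of CD3D, 68.9 CPM of CD3E, 91.2 CPM of CD3G and 79.5 CPM of CD247, all below the lowest control library (277, 108, 153 and 147 CPM in the same scaling). CD4 was 14.4 CPM and CD5 4.06 CPM, also below every control, while CD8A (19.95 CPM), CD8B (53.5 CPM), CD6 (25.96 CPM) and CD28 (1.30 CPM) lay within the control range. In its Lexogen library CD3D was 27.5 CPM and CD247 45.7 CPM, below every control and heat library, and CD3G was 11.1 CPM and CD8A 5.63 CPM, below every control library. CD3E (37.4 CPM), CD4 (4.86 CPM), CD8B (9.47 CPM), CD5 (7.60 CPM), CD6 (7.51 CPM) and CD28 (0.085 CPM) lay within the control range there.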
